A study of Oryza sativa Japonica Group with 4 samples.

Results

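Amino acid transporters of rice endosperm were examined as the 122 transcript models, of 93 genes, whose annotation in the deposited table reads amino acid transporter or amino acid permease, out of 67393 transcript models of 56797 genes. The members were found in the table by this wording and not by their values, although the wording was chosen with earlier results of these data known. The RNA came from Nipponbare, a *japonica* cultivar, at the grain-filling stage. Plants grew with a 12 h day at 28°C and a 12 h night at 22°C until 5 days after pollination. The control group (n = 2 libraries) then stayed at these temperatures for another 5 days, and the high temperature group (n = 2 libraries) spent the same 5 days at 35°C by day and 28°C by night. All 4 libraries are of the same cultivar without any transgene, and the number of plants or panicles behind a library is not stated in the sources used here. As nothing in the labels says that the replicates came from separate plants, the p-values measure the spread between these libraries, which may be technical.

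The endosperm is the storage tissue of the grain, in which starch and protein accumulate until maturity. It has no cytoplasmic bridges to the mother plant, so amino acids that the phloem delivers leave maternal cells and enter the filial tissue through membrane carriers. Amino acid permeases are proton-coupled importers of the plasma membrane with broad substrate ranges, and related carriers prefer basic amino acids or move amino acids across the membranes of organelles. The amino acids that enter the endosperm are used largely for storage proteins, in rice mainly glutelins and prolamins.

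The descriptions fell into 4 wordings. There were 45 transcripts described as amino acid transporter, 38 as transmembrane amino acid transporter protein, 32 as amino acid permease family protein and 7 as amino acid permease. The table pairs the locus IDs with these descriptions and with no gene symbols, so the members are named by ID, and the wordings are used as they stand without assigning a substrate to any of them.

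The read counts of the libraries summed to between 6395533 and 11492692. The libraries differed by more than sampling noise in every pair (chi-square per degree of freedom of at least 19.5), so each was kept as a sample. The lowest value was that of control replicate 1 with high temperature replicate 2. Next came control replicate 2 with high temperature replicate 1 (25.5). Replicates gave 76.0 in the controls and 61.3 at high temperature, so they were less alike than these pairs. The other pairs between temperatures gave 47.7 and 110. LOC_Os09g00999.1 together with LOC_Os09g01000.1 held between 8.51% and 35.2% of the reads of a library, which changes what is left for every other transcript. Markers of endosperm (85 transcripts, 84 of them with reads) summed to 387362 and 385241 CPM (counts-per-million by library totals) in the controls and to 245275 and 416340 at high temperature. Those of embryo and aleurone (41 transcripts, 37 with reads) summed to 1464 and 2217 in the controls and to 1904 and 1724 at high temperature. Those of green pericarp (104 transcripts, 101 with reads) summed to 2394 and 1786 in the controls and to 2935 and 1522 at high temperature. Markers of green pericarp and of embryo and aleurone were thus detected in every library, and the part of all these marker levels in the results below was not tested.

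Of the 122 transcripts, 104 had reads in at least 1 library and 18 had none. A count of 0 in a library allows a level of up to 3 reads, between 0.261 and 0.469 CPM over the 4 libraries, by counting error alone. The filter for testing, at least 1 CPM in at least 2 libraries, kept 72 transcripts of 49 genes. The 50 others had at most 41 reads in the 4 libraries together, and their levels were too low to compare. The tested transcripts had a median of 140 reads over the 4 libraries together, so for most of them counting error adds to the difference between replicates.

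A single transcript stood above all other amino acid transporters. LOC_Os06g42720.1, described as an amino acid transporter and the only model of its gene, had 2092 reads in control replicate 1 and 800 in control replicate 2, and 1486 and 1418 in the high temperature libraries. In RPKM (CPM per kilobase of transcript) its level was 75.8 and 41.5 in the controls and 79.2 and 92.3 at high temperature, a mean of 72.2 ± 21.7 (SD, n = 4 libraries). This was 5.51 times the mean of the leading model of any other member gene. The mean levels of the 5 models of LOC_Os03g37984, if summed, come to 35.6 RPKM. It made up 20.1% and 18.6% of the summed RPKM of all 122 transcripts in the controls, and 27.9% and 25.6% at high temperature. Among all transcripts of a library it ranked 585th and 611th in the controls and 350th and 381st at high temperature.

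By its leading model, the next gene was LOC_Os07g04180, also described as an amino acid transporter. Its model LOC_Os07g04180.1 had 14.8 and 12.4 RPKM in the controls and 9.42 and 15.9 at high temperature, so the groups overlapped. LOC_Os03g44230.1, a transmembrane amino acid transporter protein, had 13.6 and 9.38 RPKM in the controls and 6.05 and 13.6 at high temperature, again with overlap. The mean RPKM of these and of the leading transcript was above 10, and 54 of the 72 tested transcripts had a mean of at least 1.

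**Figure D1:**
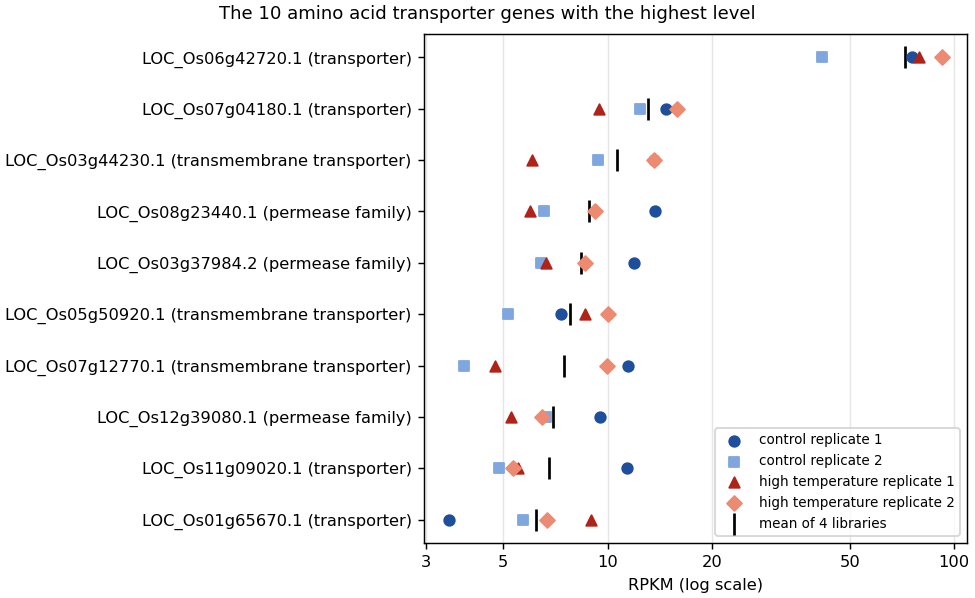
RPKM (log axis) of the 10 amino acid transporter genes with the highest mean, 1 transcript each, in the 4 libraries; a black tick marks the mean. LOC_Os06g42720.1 lies between 41.5 and 92.3 RPKM, and every value of the other 9 transcripts is below 20.

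The other 7 of the 10 leading genes had mean levels from 6.21 to 8.85 RPKM. They were the permease family transcripts LOC_Os08g23440.1 (8.85 ± 3.51, SD, n = 4), LOC_Os03g37984.2 (8.39 ± 2.56) and LOC_Os12g39080.1 (6.98 ± 1.80), the transmembrane transporter transcripts LOC_Os05g50920.1 (7.78 ± 2.07) and LOC_Os07g12770.1 (7.49 ± 3.76), and the transporter transcripts LOC_Os11g09020.1 (6.76 ± 3.08) and LOC_Os01g65670.1 (6.21 ± 2.28). Their order is not resolved, as neighbouring means differ by less than the SD over the libraries. LOC_Os03g37984 has more models than any other member gene. Models of a gene share exons, and how reads in shared exons were assigned is not stated, so neither a sum over models nor a single model is certain to give the level of the gene.

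Neighbouring loci could differ in level. LOC_Os01g65660 and LOC_Os01g65670 stand next to each other in the locus order of the table and both are described as amino acid transporters. Their leading models had means of 0.563 and 6.21 RPKM, with 13, 10, 9 and 13 reads for LOC_Os01g65660.1 against 72, 82, 126 and 77 for LOC_Os01g65670.1 (control replicates 1 and 2, then high temperature replicates 1 and 2). In LOC_Os01g65670.1 the RPKM was 3.48 and 5.68 in the controls and 8.97 and 6.70 at high temperature. This pair was chosen after its values were seen.

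The question of the series is how lasting high temperature changes the transcripts of the filling endosperm. It was asked of the amino acid transporters with edgeR's quasi-likelihood test on the read counts, after TMM normalization, which scales libraries on the bulk of their transcripts and so takes out the weight of the few very abundant ones. After Benjamini-Hochberg adjustment 0 of the 72 tested transcripts passed a p-value of 0.05 in edgeR, as did 0% of the 27358 transcripts tested in the whole table, and the lowest adjusted p of a member was 0.576. DESeq2 and limma also called 0 of the 72, and over the whole table they called 58 and 11. An unadjusted p-value under 0.05 was found for 6 members with a higher level at high temperature, 8.33% of those tested against 4.15% of all tested transcripts. It was found for 1 member with a lower level, 1.39% against 2.79%. Of the 6 higher members, 3 are models of the gene LOC_Os12g42850. With 1 model per gene, 3 of 49 genes were higher (6.12%) and 1 was lower (2.04%). No share over all genes is given for that count, so it is not set against the background. At an unadjusted p-value under 0.05, DESeq2 gave 5 members, all higher, and limma 3, all higher. Those of DESeq2 include LOC_Os12g42850.1, LOC_Os12g42850.2 and LOC_Os12g42850.3, models of the same gene, and those of limma include the first and second of them. Shares over all tested transcripts are not given for these fits, so the counts are not set against the background. Only 2 libraries stood for each temperature, which limits the precision of every difference given here.

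In 15 of the 72 members both values at high temperature were above those of both controls (20.8%, against 19.1% of all tested transcripts), and in 17 both lay below (23.6%, against 17.7%). In the remaining 40 the groups overlapped. The log2 fold changes of the members, given from here on as the log2 ratio of high temperature to control, ran from -1.73 to 1.67 with a median of -0.07, against a median of 0.00 over all tested transcripts. They were above 0 for 33 members and below 0 for 39. With 1 model per gene, 20 of 49 genes were above 0 and 29 below, with a median of -0.15. In that count both high temperature values lay above both controls in 8 genes (16.3%) and below in 14 (28.6%). For 45 of the 72 members (62.5%, against 71.1% of all tested transcripts) the difference between replicates of a group was larger than the difference between temperatures. The share of members above the controls thus stood close to the background. The share below was higher than the background, and this difference was not tested. The background counts transcript models, so the shares with 1 model per gene are not set against it.

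The leading transcript LOC_Os06g42720.1 had 139 and 132 TMM-normalized CPM in the controls and 214 and 198 at high temperature. Both high temperature libraries were above both controls, and the replicates of each group lay close together. Its log2 ratio was 0.61 (standard error 0.32, unadjusted p = 0.0975 and adjusted p = 0.787, edgeR), so the difference did not pass the test. The estimate stayed between 0.55 and 0.64 when each library was left out in turn. In RPKM, which scales by total reads, control replicate 1 (75.8) lay near high temperature replicate 1 (79.2), although the order of the groups was the same.

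Summed over all 122 transcripts, the TMM-normalized level was 645 and 659 CPM in the controls and 719 and 737 at high temperature. Without LOC_Os06g42720.1 it was 506 and 527 in the controls and 504 and 539 at high temperature, and the groups overlapped. When the reads were scaled by library totals instead, the summed level was 847 and 496 CPM in the controls and 638 and 825 at high temperature. On that scale the groups overlapped, and the controls were further apart than the group means.

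**Figure D2:**
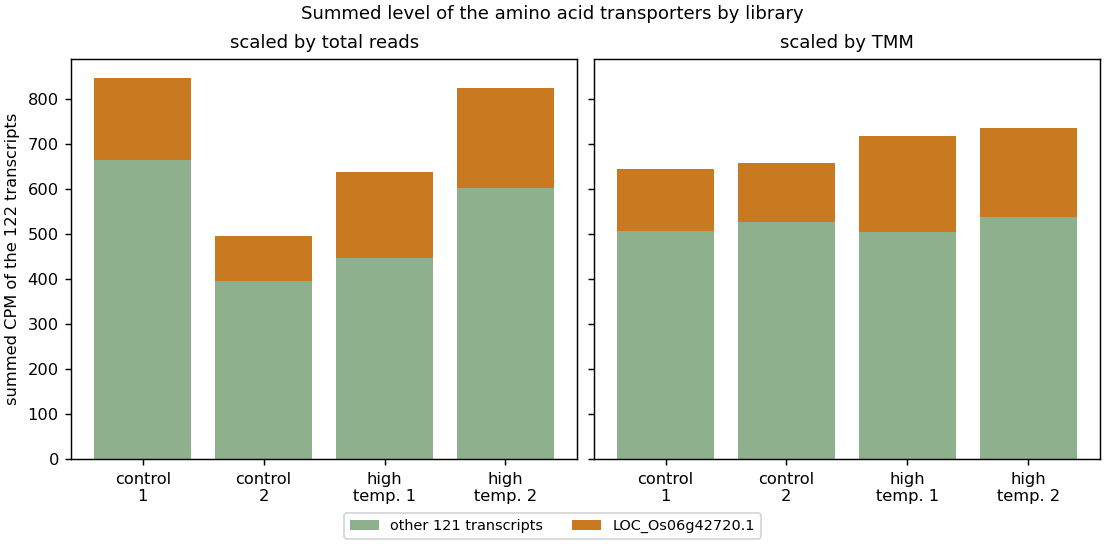
Summed CPM of the 122 amino acid transporter transcripts in each library, scaled by total reads (left) and by TMM (right), with LOC_Os06g42720.1 in orange and the other 121 in green. The green part lies between 504 and 539 CPM in all 4 libraries under TMM and between 397 and 665 when scaled by total reads.

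The 7 transcripts described simply as amino acid permease belong to 4 genes and had the highest median log2 ratio of the 4 wordings. All 7 were tested. At high temperature both values were above the controls in 5 of them (71.4%, against 19.1% of all tested transcripts) and below in 1 (14.3%, against 17.7%), and the median log2 ratio was 1.0. The 5 come from LOC_Os12g42850 (3 models) and LOC_Os02g43860 (2 models), so they stand for 2 genes. As models of a gene have exons in common, they were not taken as 5 separate measurements.

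LOC_Os12g42850.1 had 113 and 80 reads in the controls and 142 and 183 at high temperature. This was 7.48 and 13.2 TMM-normalized CPM against 20.5 and 25.5. The groups did not overlap, but the controls differed from each other by more than the high temperature libraries did. The log2 ratio was 1.18 (standard error 0.34, unadjusted p = 0.00912, adjusted p = 0.576, edgeR), the lowest p-value among the members. Left-out libraries moved it between 0.79 without control replicate 1 and 1.62 without control replicate 2, where the adjusted p was 0.0282. In RPKM the controls were 3.64 and 3.69, nearly equal, against 6.72 and 10.6.

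The other models of this gene gave nearly the same counts. LOC_Os12g42850.2 and LOC_Os12g42850.3 had 107 and 114 reads in control replicate 1 and 154 and 155 in high temperature replicate 2. Their log2 ratios were 1.07 (standard error 0.34) and 1.0 (standard error 0.33), with unadjusted p-values of 0.0125 and 0.0167 and adjusted p-values of 0.599 and 0.608 (edgeR). Without control replicate 2, LOC_Os12g42850.2 had a log2 ratio of 1.49 and an adjusted p of 0.0453, and without control replicate 1 it had 0.70 and an adjusted p of 0.755 (edgeR).

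LOC_Os02g43860.1 had 6.89 and 4.47 TMM-normalized CPM in the controls and 13.1 and 11.3 at high temperature, from 104, 27, 91 and 81 reads. Every high temperature value was above every control value. The log2 ratio was 1.07 (standard error 0.33, unadjusted p = 0.0107, adjusted p = 0.593, edgeR), and it lay between 0.82 and 1.44 when a library was left out. The second model, LOC_Os02g43860.2, had a log2 ratio of 0.68 and an unadjusted p of 0.0572.

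The other genes of this wording had log2 ratios below 0. They are named to complete the class and do not come from the rule. LOC_Os10g30090.1 had 7.88 and 6.62 TMM-normalized CPM in the controls and 3.17 and 6.42 at high temperature, with a log2 ratio of -0.60 (standard error 0.39). LOC_Os03g45170.1 had 6.49 and 7.28 CPM in the controls and 3.75 and 7.40 at high temperature, with a log2 ratio of -0.29 (standard error 0.38). In both genes high temperature replicate 1 was the low library and high temperature replicate 2 lay at or near the controls.

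**Figure D3:**
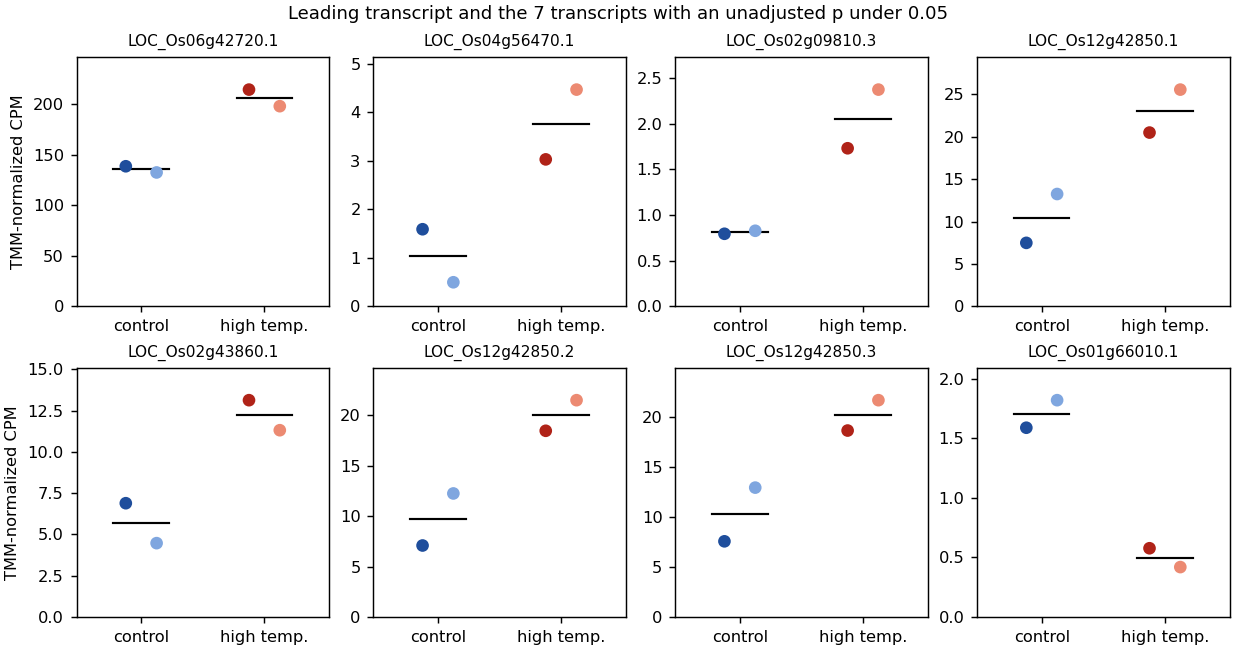
TMM-normalized CPM of LOC_Os06g42720.1 and of the 7 transcripts with an unadjusted p under 0.05; each dot is a library (darker shade replicate 1, lighter shade replicate 2) and the line is the mean of the group. In all 8 panels the groups do not overlap, and LOC_Os01g66010.1 is the panel in which high temperature is lower.

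Among the 27 tested transcripts described as amino acid transporter, 5 lay above (18.5%, against 19.1% of all tested transcripts) and 6 below the controls without overlap (22.2%, against 17.7%), and the median log2 ratio was 0.02. Of the 27, 2 had an unadjusted p under 0.05 with higher values at high temperature. LOC_Os04g56470.1 had 24 and 3 reads in the controls and 21 and 32 at high temperature, or 1.59 and 0.497 CPM against 3.03 and 4.47 after TMM. Its log2 ratio of 1.67 (standard error 0.54, adjusted p = 0.599, edgeR) was the highest of the members and rests in part on the 3 reads of control replicate 2. It was 1.23 without that library and 2.87 without control replicate 1. The other model of this gene, LOC_Os04g56470.2, had a log2 ratio of 0.72 (standard error 0.53). LOC_Os02g09810.3 had 12, 5, 12 and 17 reads, or 0.795 and 0.828 CPM against 1.73 and 2.37, with a log2 ratio of 1.33 (standard error 0.50, adjusted p = 0.686, edgeR). The other models of this gene had more reads and smaller differences. LOC_Os02g09810.1 had 64 reads over the 4 libraries and a log2 ratio of 0.50 (standard error 0.46). LOC_Os02g09810.2 had 73 reads and a log2 ratio of 0.30 (standard error 0.47), and its groups overlapped.

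The single member with an unadjusted p under 0.05 and a lower level was LOC_Os01g66010.1, of the same wording. It had 24 and 11 reads in the controls and 4 and 3 at high temperature, or 1.59 and 1.82 CPM against 0.577 and 0.419. All 4 values were below 2 CPM. It passed the filter only through the controls, the group in which it was higher, so its place among the tested transcripts depended on that difference and the p-value is given as a description. The log2 ratio was -1.73 (standard error 0.58, unadjusted p = 0.0171, adjusted p = 0.612, edgeR), and it was -1.97 and -1.55 without high temperature replicates 1 and 2. Without either control it no longer passed the filter, so no value was obtained.

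LOC_Os01g65670.1 showed how far a single control could set a result. It had 4.77 CPM in control replicate 1, 13.6 in control replicate 2 and 18.2 and 10.7 at high temperature, so the groups overlapped. Its log2 ratio was 0.70 (standard error 0.50, adjusted p = 0.838, edgeR), 0.09 without control replicate 1 and 1.60 without control replicate 2, where the adjusted p was 0.0434. LOC_Os04g39489.1 likewise overlapped, with 3.71 and 6.79 CPM in the controls, 9.09 and 6.56 at high temperature and a log2 ratio of 0.62 (standard error 0.39), which was 0.20 without control replicate 1 and 1.07 without control replicate 2. LOC_Os11g09020.1, with 17.3 and 12.9 CPM in the controls and 12.4 and 9.49 at high temperature, had a log2 ratio of -0.47 (standard error 0.30), which was -0.24 without control replicate 1 and -0.68 without high temperature replicate 1. LOC_Os07g04180.1 had a log2 ratio of -0.15 (standard error 0.32), whose sign turned without control replicate 2 (0.14) and without high temperature replicate 1 (0.04). LOC_Os04g12499.1, with 20, 11, 8 and 1 reads, had a log2 ratio of -1.23 (standard error 0.77), which ran from -3.33 without high temperature replicate 1 to -0.42 without high temperature replicate 2.

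**Figure D4:**
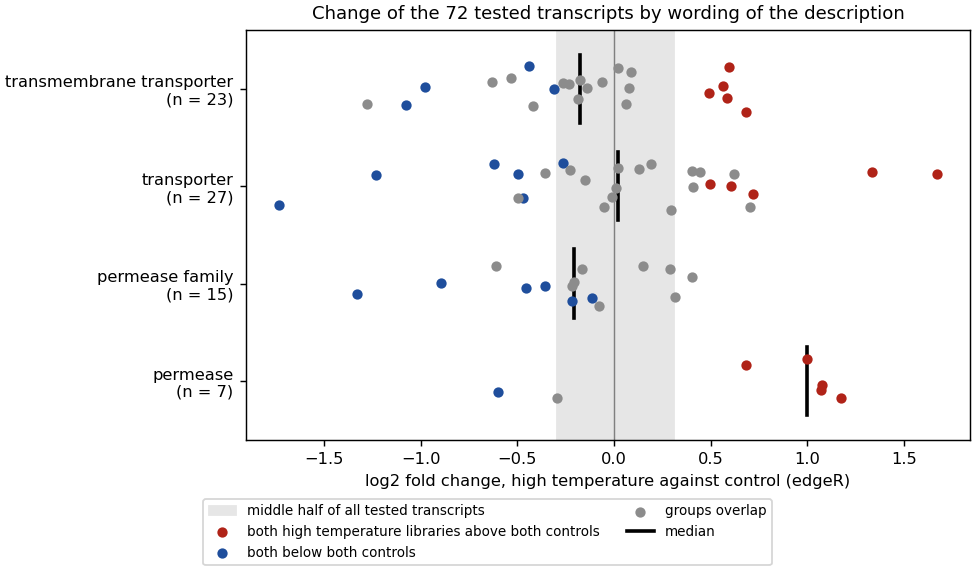
Log2 fold change (high temperature against control, edgeR) of the 72 tested transcripts by the wording of their description; each dot is a transcript, the black bar is the median of the wording, and the grey band runs from the lower to the upper quartile of all 27358 tested transcripts (-0.30 to 0.31). Red dots (15) have both high temperature libraries above both controls, blue dots (17) have both below; 5 of the 7 permease transcripts are red and no permease family transcript is.

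Of the 32 permease family transcripts, 15 of 10 genes were tested. None had both high temperature libraries above both controls (0%, against 19.1% of all tested transcripts) and 6 had both below (40%, against 17.7%), and the median log2 ratio was -0.21. Of these 6 transcripts, 2 are models of LOC_Os03g37984. None of the 15 had an unadjusted p under 0.05. LOC_Os08g23440.1 had 38.7 and 32.4 CPM in the controls and 24.95 and 30.6 at high temperature, a log2 ratio of -0.36 (standard error 0.29) that ran from -0.54 without high temperature replicate 2 to -0.22 without high temperature replicate 1. LOC_Os12g39080.1 had 14.2 and 17.4 CPM against 11.7 and 11.3, a log2 ratio of -0.45 (standard error 0.28). For LOC_Os03g37984 all 5 models had log2 ratios between -0.22 and -0.08, and LOC_Os03g37984.2 had at least 18.7 CPM in both controls and at most 16.9 in both high temperature libraries. The largest difference of the wording was that of LOC_Os01g42234.1, named after its values were seen, with 22 and 19 reads in the controls and 8 and 4 at high temperature. These few reads gave a log2 ratio of -1.33 (standard error 0.63, unadjusted p = 0.066, adjusted p = 0.738, edgeR). The other model of this gene, LOC_Os01g42234.2, had 90 reads over the 4 libraries against 53. Its log2 ratio was -0.61 (standard error 0.62), and its groups overlapped.

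Of the 38 transmembrane amino acid transporter transcripts, 23 of 17 genes were tested, with 5 above (21.7%, against 19.1% of all tested transcripts) and 4 below the controls without overlap (17.4%, against 17.7%) and a median log2 ratio of -0.17. None had an unadjusted p under 0.05. LOC_Os05g50920.1 came closest among those with higher values, with 10.3 and 12.6 CPM in the controls and 17.9 and 16.5 at high temperature. This gave a log2 ratio of 0.60 (standard error 0.28, unadjusted p = 0.0631, adjusted p = 0.736, edgeR), and its replicates differed by less than the groups. LOC_Os01g61044.2 had the largest difference in the other direction, -1.28 (standard error 0.58), but its values of 5.30 and 2.32 CPM in the controls and 2.45 and 0.838 at high temperature overlapped, and the log2 ratio ran from -2.23 without high temperature replicate 1 to -0.50 without control replicate 1. LOC_Os04g38680.1, with 2.19 and 2.65 CPM against 1.01 and 1.40, had a log2 ratio of -0.98 (standard error 0.47), and LOC_Os07g01090.2, with 28, 6, 3 and 7 reads, had -1.08 (standard error 0.63).

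In other well expressed transcripts of this wording the replicates lay apart. LOC_Os07g12770.1 had 16.0 and 9.43 CPM in the controls, replicate 1 first, and 9.81 and 16.3 at high temperature. Its log2 ratio was 0.02 (standard error 0.37), and it was -0.29 without control replicate 2 and -0.42 without high temperature replicate 2. LOC_Os03g44230.1 had 23.7, 28.5, 15.6 and 27.8 CPM in the same order and a log2 ratio of -0.26 (standard error 0.34), which was 0.09 without high temperature replicate 1. In neither gene did the temperatures separate.

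Of the 93 genes, 19 had several member models, and in 14 of them at least 2 models were tested. The models had log2 ratios of the same sign in 11 of these 14 genes and of both signs in 3, where all values lay between -0.62 and 0.09. As models of a gene have exons in common, the same sign was not taken as independent evidence. A bulk tissue sample cannot tell fewer cells of a type from less RNA per cell, for any of these transcripts.

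Other genes that handle nitrogen in the grain were counted in the same fit, from lists of words in the descriptions, and 0 of their transcripts, as of the whole table, had an adjusted p under 0.05 in edgeR. Peptide transporters, which carry short peptides and in part nitrate, had 119 transcripts, of which 73 were tested, with a median log2 ratio of 0.09. Of these, 10 lay above the controls (13.7%, against 19.1% of all tested transcripts) and 14 below (19.2%, against 17.7%). At an unadjusted p under 0.05 (edgeR), 4 of the 73 were higher (5.48%, against 4.15%) and 2 lower (2.74%, against 2.79%). Among the 4, LOC_Os01g65120.1 passed the filter only through high temperature, where it was higher (5 and 4 reads against 10 and 14). EamA-like carriers, a group that in Arabidopsis holds amino acid exporters, had 8 tested transcripts, with a median of -0.18. Of these 1 lay above (12.5%, against 19.1%) and 2 below (25%, against 17.7%). Among those below, LOC_Os12g18960.2 passed the filter only through the controls, where it was higher (22 and 12 reads against 2 and 5). Of 13 ammonium transporters 4 were tested, with 0 above (0%, against 19.1%) and 1 below (25%, against 17.7%). The transcript below, LOC_Os03g62200.1, passed the filter only through the controls, where it was higher (26 and 13 reads against 4 and 2). For nitrate transporters 0 of 2 transcripts passed the filter, and no description named a lysine-histidine transporter, a proline transporter or a GABA permease.

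Among nitrogen assimilation enzymes, 24 of 25 transcripts were tested. They are models of 13 genes and so not 24 separate measurements. Both high temperature libraries lay below both controls in 11 of the 24 (45.8%, against 17.7% of all tested transcripts) and above in 0. The log2 ratio was above 0 in 10 and below 0 in 14, with a median of -0.17. At an unadjusted p under 0.05 (edgeR), 3 were lower (12.5%, against 2.79%) and 0 higher, and the transcripts named here are from these 3. LOC_Os04g45970.1, a glutamate dehydrogenase, which interconverts glutamate and ammonium, had 25.9 and 21.0 CPM in the controls and 11.1 and 7.82 at high temperature. The log2 ratio was -1.31 (standard error 0.31, unadjusted p = 0.00253, adjusted p = 0.459, edgeR). LOC_Os03g12290.1, a glutamine synthetase, which adds ammonium to glutamate, had 39.1 and 36.1 CPM against 22.2 and 13.4 and a log2 ratio of -1.08 (standard error 0.33, adjusted p = 0.585, edgeR).

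Aminotransferases, which pass amino groups between amino acids and keto acids, had 78 tested transcripts, with a median of -0.12. Of these, 12 lay above (15.4%, against 19.1% of all tested transcripts) and 19 below (24.4%, against 17.7%). Storage proteins (glutelins and prolamins), which take up most of the amino acids of the grain, had 46 tested transcripts, with 0 above and 26 below (56.5%, against 17.7% of all tested transcripts) and a median of -0.83. At an unadjusted p under 0.05, 10 of them were lower (21.7%, against 2.79%). Summed over the list, however, the groups overlapped on both scales. The summed TMM-normalized level was 282165 and 493515 CPM in the controls and 266388 and 360186 at high temperature. Scaled by library totals, the sum was 370754 and 371684 in the controls and 236358 and 403425 at high temperature. Of the 81 tested endosperm markers, which include storage proteins, 45 lay below the controls (55.6%) with a median of -0.51, and the part of this in the values of the nitrogen and storage protein lists was not tested. Replicates of the storage proteins lay further apart than those of the transporters, by a median factor of 1.61 in the controls against 1.32. Members of these families can be near-identical copies, so the values of single storage protein transcripts are uncertain. The difference in median between the transporters and these lists was not tested.

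**Figure D5:**
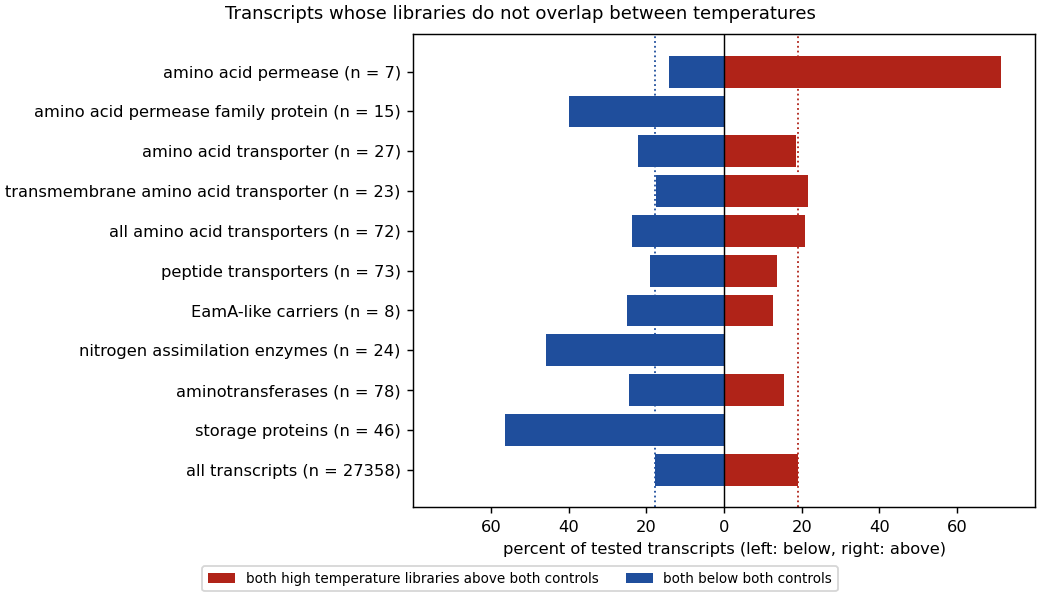
Percent of the tested transcripts of each list with both high temperature libraries below (blue, to the left) or above (red, to the right) both controls; dotted lines mark the percent over all 27358 tested transcripts (17.7 and 19.1). The amino acid transporters together (20.8 above, 23.6 below) lie near the dotted lines, the 7 permease transcripts are mostly above, and nitrogen assimilation enzymes and storage proteins have none above.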

How the data were processed

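Endosperm poly(A) RNA of 2 control and 2 high temperature libraries was sequenced on an Illumina instrument. The deposited table gives whole-number counts of reads for each transcript model, which the authors describe as uniquely mapped reads over exons; the aligner, genome build and annotation release are not given in the sources used here. NA cells were read as 0. The 4 columns headed RPKM were not used, and RPKM was computed from the counts and the transcript lengths in the table for all 4 libraries. Column sums (6395533 to 11492692) were taken as depth, and intervals and floors cover counting error only.

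Temperature was tested over the whole table with edgeR 4.0.16 (TMM, quasi-likelihood, no replicate block) under R 4.3.3. P-values were adjusted by Benjamini and Hochberg over the 27358 transcripts that reached 1 CPM in 2 or more libraries. Standard errors of log2 ratios were derived from the F statistic as ratio over root F. Replicate ratios used CPM plus 0.5. Tables and plots were made with Python 3.11.15 and pandas 2.3.3. The fits were tested on simulated data. Alternatives were DESeq2 1.42.0, limma 3.58.1 on log2(RPKM + 1), upper quartile normalization, other filters, 1 transcript per gene, a replicate block and each library left out in turn.

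Members and word lists were chosen with earlier results of these data known. Named members are those with an unadjusted p under 0.05, the 10 genes of highest mean RPKM, and the 5 genes with the largest log2 fold change in each direction, 1 transcript per gene (22 transcripts). Other members named in the text were chosen after their values were seen. The reference table of gene symbols matched 0 of the 93 locus IDs.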

Additional observations from a re-analysis of the deposited data

How the results depend on the processing

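No amino acid transporter passed the adjusted threshold with upper quartile normalization, DESeq2, limma, no filter on low counts, a CPM of at least 5, 1 transcript per gene or a replicate block, nor without control replicate 1 or either high temperature library. Without control replicate 2, 3 did, LOC_Os12g42850.1, LOC_Os12g42850.2 and LOC_Os01g65670.1. Over the fits that left out a library the count of members ran from 0 to 3, that of all transcripts from 0 to 345 (42 without control replicate 1), members above the controls from 21 to 30, members below from 21 to 28, members with an unadjusted p under 0.05 from 1 to 9 (higher) and from 1 to 4 (lower), and the median log2 ratio from -0.10 to -0.03. With 3 libraries in a fit, groups fail to overlap more easily, and the lone library of a group is assumed to vary like the others. Shares over all transcripts above, below or with an unadjusted p under 0.05 are not given for these fits. The member counts are therefore not set against the background.

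Over all transcripts, DESeq2 called 58, the fit without a filter 365 and limma 11, the cause of which was not tested. The median of the members was -0.12 with a CPM of at least 5 (32 members, 8 above and 7 below). With 1 transcript per gene it was -0.16 (52 members, 8 above and 15 below). Members below the controls numbered 8 with limma. The member counts of these alternatives are given without shares over all transcripts and so are not set against the background. At an unadjusted p under 0.05, 3 members were higher with 1 transcript per gene and 3 with limma, while 0 were lower with DESeq2, with limma and with a CPM of at least 5, and 3 without a filter.

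With the replicate block, 0 transcripts passed the adjusted threshold and 2 members were lower at an unadjusted p under 0.05. Same-numbered libraries deviated in opposite directions (correlation of -0.38 across tested transcripts). A crossed replicate block, chosen after seeing the data, called 828 of the 27358 tested transcripts and 5 of the 72 tested members.

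Of 228 values for the 22 named transcripts, 220 kept their sign and side of the threshold, 3 passed it and 5 changed sign. Those 5 all came from leaving out a library, for LOC_Os07g04180.1 (-0.41 to 0.14), LOC_Os03g44230.1 (-0.76 to 0.092, the latter without high temperature replicate 1) and LOC_Os07g12770.1 (-0.42 to 0.47).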
